A study of Homo sapiens with 4 samples.

Results

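TFCP2, TYMS and 5 enzymes that handle pyrimidines, DPYD, TYMP, UMPS, UPP1 and UCK2, were examined in SAS cells after knockdown of AEG-1. The 7 genes were chosen by name, as genes that have been linked to fluoropyrimidine resistance driven by AEG-1, and every array probe whose accession maps to one of them was taken. Of the 7 genes, 6 had a matched probe, 8 probes in all, among 34127 probes and 27953 genes or unnamed transcripts on the array. UPP1 was not matched to a probe by accession and was not analysed here.

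SAS is an established line of human tongue squamous cell carcinoma. SB cells carry a lentiviral pLKO.1 construct that expresses 1 shRNA (B) against AEG-1, the product of MTDH (also called LYRIC). SCt cells carry the pLKO.1 vector according to the sample labels, or a scrambled shRNA according to the methods of the study. Both lines went through 14 days of puromycin at 2 μg/ml and stayed in puromycin and serum afterwards, and neither was given a fluoropyrimidine. SB RNA (red dye) and SCt RNA (green dye), 15 μg for each labelling, were hybridized together on each of 4 Agilent arrays. SB cells represent 1 shRNA in 1 line, and the labels call the 4 arrays biological replicates. Whether each array had a culture of its own is not stated further, and if not, the p-values measure technical spread only. All 4 arrays lay on 1 slide with 0 dye swaps, so a probe's preference for a dye and an effect of the knockdown cannot be told apart. Each array held 43118 spots other than controls, of which 84.7% to 90.3% were well above background in each channel. All values are log2 ratios of SB over SCt after background correction and loess normalization within the array, tested against 0 with limma and Benjamini-Hochberg adjustment over the 28507 probes that passed a filter on dim signal. Each of 23485 genes was represented by its brightest probe. MTDH itself fell 9.07-fold (log2 −3.18 ± 0.17, SD over 4 arrays; limma, adjusted p = 5.22e-10), the direction that the labels give. All 10 squamous epithelial markers examined, KRT5, KRT14 and TP63 among them, were above background, and 0 of the 10 passed the test. The 12 fibroblast, leukocyte and endothelial markers tested were above background as well, and 0 of the 12 passed the test. PTPRC, a leukocyte marker, had intensities of 16422 to 22957 in SB cells at its brightest probe. Its other probes were lower: A_33_P3309526 had 5457 to 7675 and A_33_P3364821 173 to 193, and A_33_P3364811 was too dim to be tested. Passing the background filter thus did not set the squamous markers apart, although intensities differed widely within both groups. In SB cells KRT5 had 19868 to 37696 and CDH1 642 to 1696, while COL1A1 had 4454 to 8433 and COL1A2 104 to 112. COL3A1, PDGFRB and LUM were too dim to be tested.

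Fluoropyrimidines such as fluorouracil act after conversion into nucleotides. A product of this conversion blocks thymidylate synthase, the TYMS enzyme, which makes dTMP from dUMP with a reduced folate as carbon donor. UMPS, UPP1, UCK2 and TYMP take the drug into the nucleotide pool, and DPYD starts its breakdown. TFCP2, also called LSF, is a transcription factor that activates TYMS at entry into S phase. In hepatoma cells, AEG-1 has been linked to higher TFCP2, TYMS and DPYD and to survival under fluorouracil.

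TYMS was lower in SB cells, by 20.4% on average over the 4 arrays and with a fall on 3 of them, and it was the only one of the 6 measured genes past the threshold. TFCP2, DPYD, TYMP, UMPS and UCK2 were not past it, with mean log2 ratios between −0.04 and 0.11. The share called, 1 of 6, is 1 gene, set against 3.51% of all 23485 genes tested that were called in either direction (2.26% lower, 1.26% higher) and 3.7% of all probes. The median log2 ratio of the 6 genes was 0.04, and that of all genes was 0.01. None of the 8 probes fell to background in either channel of any array. Each of the 8 was spotted once on an array, so no spread between spots of one array can be given for them.

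**Figure D1:**
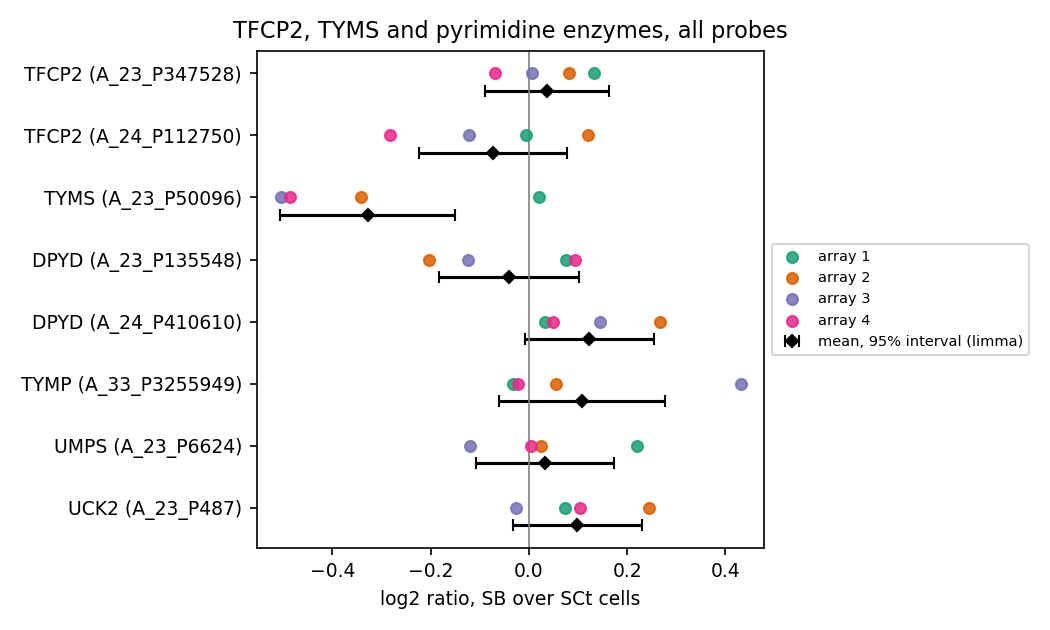
Log2 ratio of SB over SCt cells (x axis) for the 8 probes of 6 genes, with a coloured point for each of 4 arrays and a black diamond with a bar for the mean and its 95% interval from limma. The interval of TYMS lies below 0, with array 1 at 0.02, and the intervals of the other 7 probes span 0.

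TFCP2, the transcription factor, was read by 2 probes. At the brighter probe (A_23_P347528) the 4 arrays gave log2 ratios of 0.13, 0.08, 0.01 and −0.07, and at the other (A_24_P112750) −0.01, 0.12, −0.12 and −0.28. Neither probe kept 1 direction, and array 4 was the lowest at both. The intensities of the brighter probe, after normalization and on a linear scale, were 1537, 1719, 1743 and 1905 in SB cells and 1402, 1624, 1735 and 1999 in SCt cells, so the 2 lines overlapped. Its mean was 0.04 ± 0.09 (SD, n = 4 arrays; limma, adjusted p = 0.783), with a 95% interval from −0.09 to 0.16 on the log2 scale. The other probe had −0.07 ± 0.17 (SD, n = 4 arrays; limma, adjusted p = 0.620). With the mean of both probes, the sign turned to −0.02. A change of TFCP2 below −5.97% at the brighter probe, or below −14.4% at the other, lay outside the 95% intervals. These intervals do not cover a probe's preference for a dye, and they measure technical spread only if the arrays shared a culture.

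TYMS, read by 1 probe (A_23_P50096), had log2 ratios of 0.02, −0.34, −0.50 and −0.49. Arrays 2 to 4 were lower than any value of the brightest probes of the other 5 genes, and array 1 showed no fall. The intensities were 9864, 10552, 7034 and 8995 in SB cells and 9731, 13384, 9975 and 12610 in SCt cells. Across arrays the ranges overlapped, whereas on 3 of 4 arrays the SB value was below its own SCt value. The mean log2 ratio was −0.33 (SD 0.24, standard error 0.0817, n = 4 arrays), with a 95% interval from −0.51 to −0.15 and an adjusted p of 0.0496 from limma. TYMS stood at rank 1044 of the 1055 probes called, just inside the threshold. By the methods' t-test its unadjusted p was 0.0736. A two-sided exact permutation of the signs of the arrays gave p = 0.25, where 0.125 is the smallest p that 4 arrays allow.

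The call of TYMS changed with the processing, while its direction did not in the alternatives run. Of 16 alternatives, 10 altered the log2 ratio itself, and it was below 0 in all 10. The other 6 changed only the test or left this probe's ratio as it was. The 10 are not separate tests of the direction. Leaving out 1 array could not turn the sign, as only array 1 was above 0, at 0.02. The series table repeated the value of the software's ratios, −0.30. Leaving aside Aquantile normalization, which gives the same ratio and p, TYMS was past the threshold in 5 of 15 alternatives. Without array 1 it was −0.44 (limma, adjusted p = 0.00796), without array 3 it was −0.27 (limma, adjusted p = 0.299), and without array 2 it was −0.32 (limma, adjusted p = 0.147). Median centring in place of loess brought it to −0.15 (limma, adjusted p = 0.240).

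**Figure D2:**
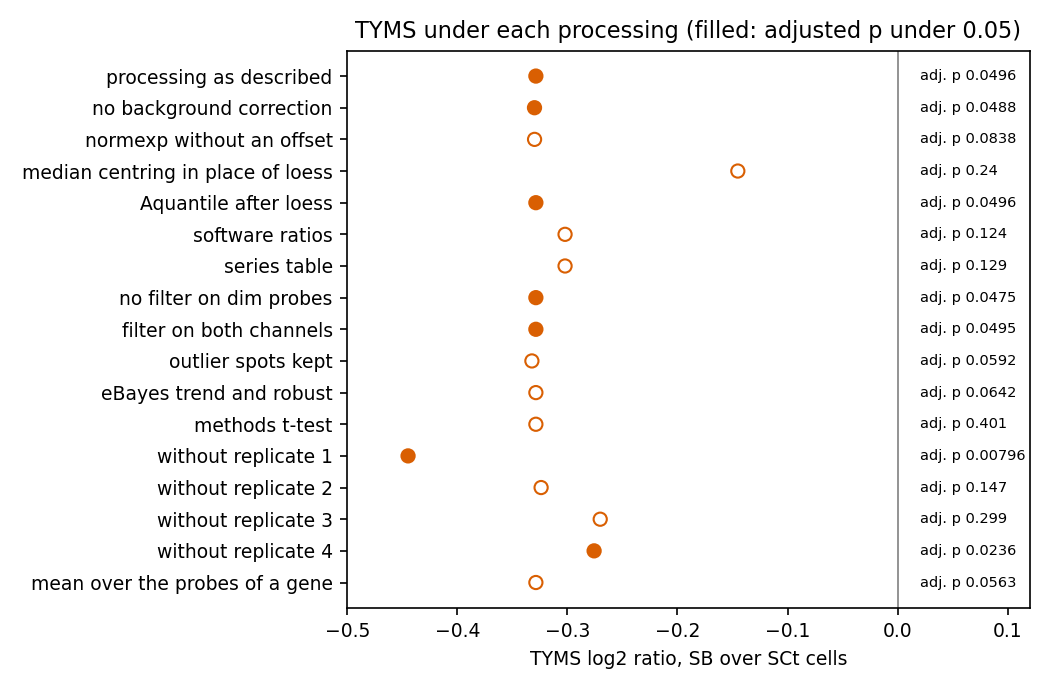
TYMS log2 ratio of SB over SCt cells (x axis) under the processing described and 16 alternatives (y axis), filled where the adjusted p of limma or of the methods' t-test, written at the right, was under 0.05. All 17 values lie below 0, of which 6 alternatives repeat the first value and the series table repeats that of the software's ratios. The filled ones lie between −0.44 and −0.28.

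The TYMS gene overlaps ENOSF1, a gene on the opposite strand whose product has been tied to thymidylate synthase, in the RefSeq table. ENOSF1 had log2 ratios of 0.0031, −0.04, −0.10 and −0.22, with a mean of −0.09 ± 0.10 (SD, n = 4 arrays; limma, adjusted p = 0.457). It was not past the threshold, and its array 1 was the highest, as with TYMS. ENOSF1 was looked up after the value of TYMS had been seen.

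DPYD, the first and rate-limiting enzyme of pyrimidine breakdown, was read by 2 probes of weak signal. The brighter (A_23_P135548) gave log2 ratios of 0.08, −0.20, −0.12 and 0.09, and the other (A_24_P410610) 0.03, 0.27, 0.14 and 0.05. The second probe was higher in SB cells on all 4 arrays, the first on 2 of 4. Intensities at the brighter probe were 276, 288, 247 and 248 in SB cells and 262, 332, 270 and 232 in SCt cells. The means were −0.04 ± 0.15 (limma, adjusted p = 0.799) and 0.12 ± 0.11 (limma, adjusted p = 0.299; SD, n = 4 arrays each), with 95% intervals of −11.9% to 7.4% and −0.6% to 19.3%. Of the genes of the set DPYD had the lowest intensities, and the offset of 50 in the background correction makes fold changes of weak probes smaller.

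TYMP, thymidine phosphorylase, can turn fluorouracil into a deoxynucleoside, and UPP1 does the like for the ribonucleoside. The TYMP probe (A_33_P3255949) gave log2 ratios of −0.03, 0.05, 0.43 and −0.02. Array 3 stood apart, with intensities of 82693 in SB and 61295 in SCt cells, while the other arrays had 85956, 75533 and 59078 in SB and 87876, 72716 and 59979 in SCt cells. The mean of 0.11 ± 0.22 (SD, n = 4 arrays; limma, adjusted p = 0.495) did not exceed the spread between arrays. This very bright probe was the member most open to the scaling: median centring moved it to 0.52 (limma, adjusted p = 0.00363), and the scanner software's ratios gave −0.02.

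UMPS carries out the last steps of UMP synthesis and adds ribose phosphate to fluorouracil. Its probe (A_23_P6624) gave 0.22, 0.02, −0.12 and 0.0050 on the log2 scale, with intensities of 2955, 3333, 2976 and 3408 in SB cells and 2536, 3276, 3235 and 3396 in SCt cells. The mean was 0.03 ± 0.14 (SD, n = 4 arrays; limma, adjusted p = 0.836), with a 95% interval from −7.2% to 12.7%, and it turned to −0.03 without array 1. UCK2, a uridine-cytidine kinase that phosphorylates fluorouridine, gave 0.07, 0.24, −0.03 and 0.10 (A_23_P487). Its intensities were 2285, 2436, 2178 and 2785 in SB cells and 2173, 2056, 2217 and 2592 in SCt cells. UCK2 was thus higher in SB cells on 3 of 4 arrays, with a mean of 0.10 ± 0.11 (SD over 4 arrays; limma, adjusted p = 0.415) and a 95% interval from −2.3% to 17.3%. Under median centring it was 0.20 and past the threshold (limma, adjusted p = 0.0415).

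**Figure D3:**
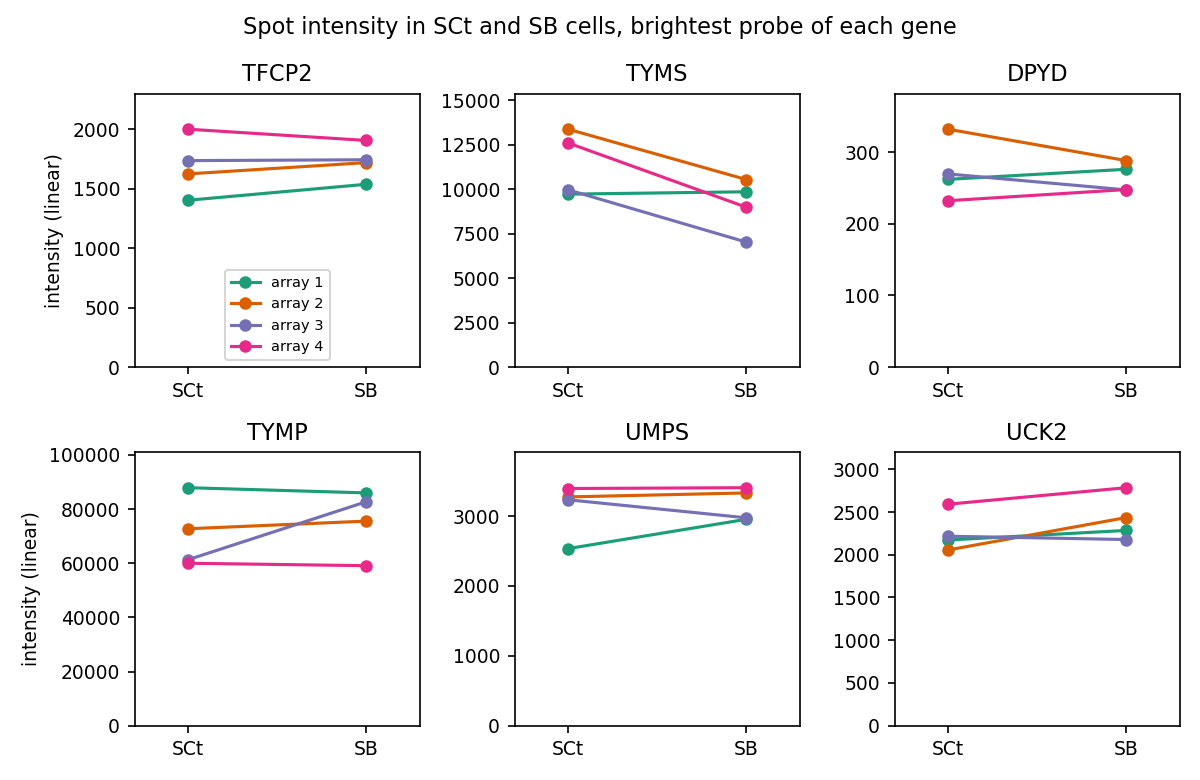
Normalized spot intensity on a linear scale (y axis, from 0) in SCt and SB cells for the brightest probe of each of 6 genes, with a line for each of 4 arrays joining the 2 channels of that array. The TYMS lines of arrays 2, 3 and 4 fall from SCt to SB cells, and TYMP rises on array 3.

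Around these enzymes, a list of 74 genes of pyrimidine and folate metabolism, 6 of the genes above included, was examined. Of the 68 that were tested, 3 were lower and 1 was higher in SB cells, a share of 5.88% against 3.51% of all genes. The median log2 ratio of the list was −0.02 and that of all genes 0.01. The 3 that fell were MTHFD2, TYMS and TK1, and the 1 that rose was CTPS2. AGXT2, UPP2, SLC28A2 and SLC28A3 were not well above background on any array, and all 4 spots of SLC46A1, a folate transporter, were marked as outliers, so these 5 were not tested. With outlier spots kept, SLC46A1 was called higher and TYMS was not called, so that 2 genes of the list were lower and 2 higher. At its brightest probe, no gene passed the test in UMP synthesis (3 tested), uridine and cytidine salvage (5), nucleotide kinases (8), ribonucleotide reductase (3), dUMP and dUTP supply (4), pyrimidine breakdown (3), nucleotidases (7), nucleoside transporters (5), drug efflux (7) or uracil excision (4). CMPK1, one of the nucleotide kinases, did pass at its other probe (log2 −0.43; limma, adjusted p = 0.00847).

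**Figure D4:**
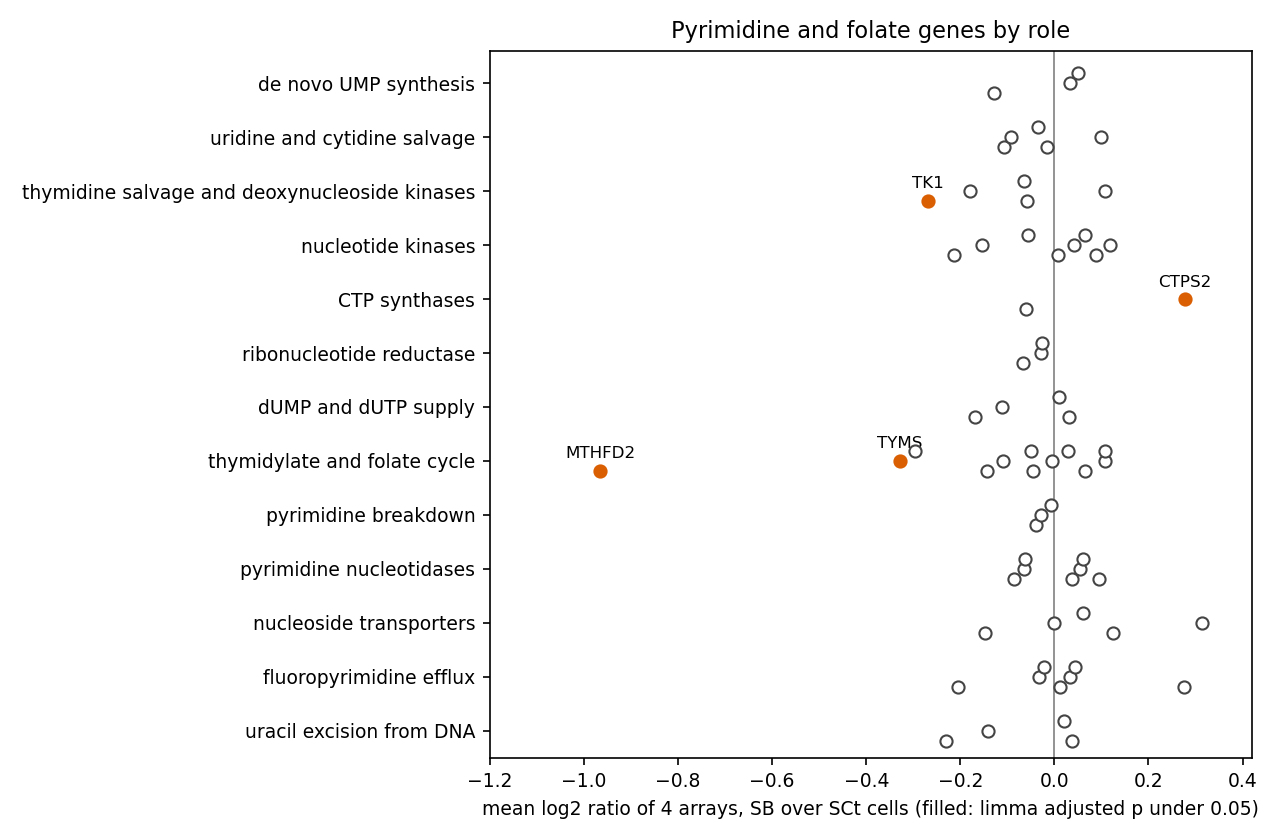
Mean log2 ratio of 4 arrays (x axis) for 68 pyrimidine and folate genes in 13 groups by role (y axis), with a point for each gene at its brightest probe, filled where limma's adjusted p was under 0.05. MTHFD2 at −0.97 stands far to the left, TYMS (−0.33) and TK1 (−0.27) are filled on the lower side and CTPS2 (0.28) on the higher side.

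MTHFD2, a mitochondrial enzyme of the folate cycle that oxidizes methylene-tetrahydrofolate, had the largest change of the 68. Its log2 ratios were −1.15, −0.94, −1.05 and −0.72 at 1 probe spotted 10 times. The intensities of 2779, 3416, 3362 and 3207 in SB cells were all below those in SCt cells, 6187, 6553, 6945 and 5281, with no overlap. The level was 1.95-fold lower on average (log2 −0.97 ± 0.19, SD over 4 arrays; limma, adjusted p = 2.59e-05), and it was called in 14 of 15 alternatives (Aquantile left aside), the exception being the methods' t-test. SHMT2, which feeds carbon units into the same mitochondrial steps, had −0.38, −0.18, −0.54 and −0.08, below 0 on 4 of 4 arrays, and just missed the threshold (mean −0.30 ± 0.21, SD; limma, adjusted p = 0.0519). MTHFD1, a cytosolic enzyme of the folate cycle, had −0.14 ± 0.09 (SD, n = 4 arrays; limma, adjusted p = 0.202).

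TK1, the cytosolic thymidine kinase that supplies dTMP by salvage, had −0.30, −0.21, −0.35 and −0.21. All 4 arrays were lower in SB cells, by 17.0% on average (mean −0.27 ± 0.07, SD, n = 4 arrays; limma, adjusted p = 0.0227). Loess mattered for this bright probe: under median centring the log2 ratio was 0.0095, and it was called in 6 of 15 alternatives (Aquantile left aside). CTPS2, which makes CTP from UTP, had 0.30, 0.14, 0.36 and 0.31 at its brightest probe (mean 0.28 ± 0.10, SD, n = 4 arrays; limma, adjusted p = 0.0234). Its other probe, spotted 10 times, had 0.04 ± 0.10 (SD, n = 4 arrays; limma, adjusted p = 0.798), so the rise was seen at 1 of its 2 probes. The paralog CTPS1 had −0.06 at its brightest probe.

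TYMS and TK1 belong to the genes that proliferating cells switch on at the G1/S border, many of them under E2F factors. Of 26 such genes, all tested, 3 were lower in SB cells (2.26% of all genes were) and 0 were higher. These were TYMS and TK1, which are already counted above, and UHRF1, a factor that maintains DNA methylation after replication. The brightest UHRF1 probe had −0.28, −0.13, −0.57 and −0.23 (mean −0.30 ± 0.19, SD, n = 4 arrays; limma, adjusted p = 0.0398) and its other probe −0.16 ± 0.25 (SD, n = 4 arrays; limma, adjusted p = 0.339). The list had a median of −0.07, with 20 of 26 genes below 0, whereas all genes had a median of 0.01, with 10480 of 23485 below 0. Genes of the list that were not past the threshold included PCNA (−0.21; limma, adjusted p = 0.107), MCM2 (−0.20; limma, adjusted p = 0.0898) and E2F1 (0.13; limma, adjusted p = 0.244). The count fell to 0 without array 2, without array 3 and under the scanner software's ratios, and under median centring 6 genes of the list were called, all of them higher in SB cells.

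Promoters of the set and of TK1, MTHFD2, UHRF1, CTPS2 and MET were searched for the E2F motif, and only TYMS and UHRF1 held a match. For that reason their promoter letters are shown, 250 bases before the RefSeq start (GRCh38.p14), with the match in capitals. A role of E2F in their lower level was not tested. The motif was searched on both strands as TTTCCCGC, TTTCGCGC, TTTGCCGC and TTTGGCGC, and 2.79% of 35116 promoter windows of that length hold it. The TYMS match begins 39 bases and the UHRF1 match 14 bases before the start, and both read as the reverse complement.
TYMS chr18:657403-657652 (+ strand): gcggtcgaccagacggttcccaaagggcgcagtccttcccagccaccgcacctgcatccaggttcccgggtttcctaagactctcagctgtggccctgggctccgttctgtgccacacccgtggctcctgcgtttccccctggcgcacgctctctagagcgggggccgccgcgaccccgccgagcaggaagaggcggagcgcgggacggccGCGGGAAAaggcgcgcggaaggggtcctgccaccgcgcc
UHRF1 chr19:4909251-4909500 (+ strand): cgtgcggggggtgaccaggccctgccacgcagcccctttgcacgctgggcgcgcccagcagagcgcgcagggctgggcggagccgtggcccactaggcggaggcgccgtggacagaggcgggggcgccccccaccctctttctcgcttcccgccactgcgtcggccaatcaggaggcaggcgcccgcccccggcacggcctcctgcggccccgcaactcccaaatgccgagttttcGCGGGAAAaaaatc
Another of the 3 UHRF1 windows holds a match as well, 160 bases before its start. The windows of TK1, MTHFD2, CTPS2, MET and the other 6 genes of the set hold none.

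TFCP2 binds DNA at paired short sites. A strict form, CTGG followed after any 6 bases by CTGG, was searched on both strands and found in 3.27% of the promoter windows. None of the windows examined held both motifs. Of the 7 genes of the set only UMPS, whose log2 ratio was 0.03, holds it. Both windows of TK1, at −0.27, hold it too, but they overlap and share the same site. The TYMS window does not hold these letters. The matches, in capitals, begin 186 and 21 bases before the start. They are shown because no other gene searched held this motif. UMPS was not called, and TK1 was called lower but kept that call in only 6 of 15 alternatives (Aquantile left aside).
UMPS chr3:124730202-124730451 (+ strand): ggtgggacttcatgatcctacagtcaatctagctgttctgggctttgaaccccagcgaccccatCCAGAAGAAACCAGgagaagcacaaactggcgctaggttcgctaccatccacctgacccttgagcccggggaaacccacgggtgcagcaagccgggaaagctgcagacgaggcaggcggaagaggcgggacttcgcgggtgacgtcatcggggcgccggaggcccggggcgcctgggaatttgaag
TK1 chr17:78187205-78187454 (- strand): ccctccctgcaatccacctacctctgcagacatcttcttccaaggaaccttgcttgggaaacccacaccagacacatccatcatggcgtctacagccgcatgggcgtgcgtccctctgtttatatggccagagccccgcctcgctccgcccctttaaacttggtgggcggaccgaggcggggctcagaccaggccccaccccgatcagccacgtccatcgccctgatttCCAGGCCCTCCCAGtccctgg

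Genes that have been reported as TFCP2 targets, a list of 5, were all tested, and 2 were lower in SB cells (2.26% of all genes were), with 0 higher. These were TYMS, counted above, and MET. MET, the hepatocyte growth factor receptor, had log2 ratios of −0.40, −0.25, −0.39 and −0.36 at a probe spotted 10 times. Its intensities were 3030, 5054, 3964 and 3830 in SB cells and 3987, 5995, 5186 and 4919 in SCt cells, lower on 4 of 4 arrays although the ranges overlapped. The mean was −0.35 ± 0.07 (SD, n = 4 arrays; limma, adjusted p = 0.00626), and it was below 0 in all 10 alternatives that altered the ratio and called in 13 of 15 (Aquantile left aside). With all 4 arrays below 0, leaving out an array could not turn the sign of MET. MET was not called without array 3 (−0.33; limma, adjusted p = 0.0682) or by the methods' t-test. The other 3, SPP1 (0.0015 ± 0.27; limma, adjusted p = 0.995), MMP9 (0.12 ± 0.13; limma, adjusted p = 0.348) and FN1 (−0.11 ± 0.17; limma, adjusted p = 0.431; SD, n = 4 arrays each), were not past the threshold.

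**Figure D5:**
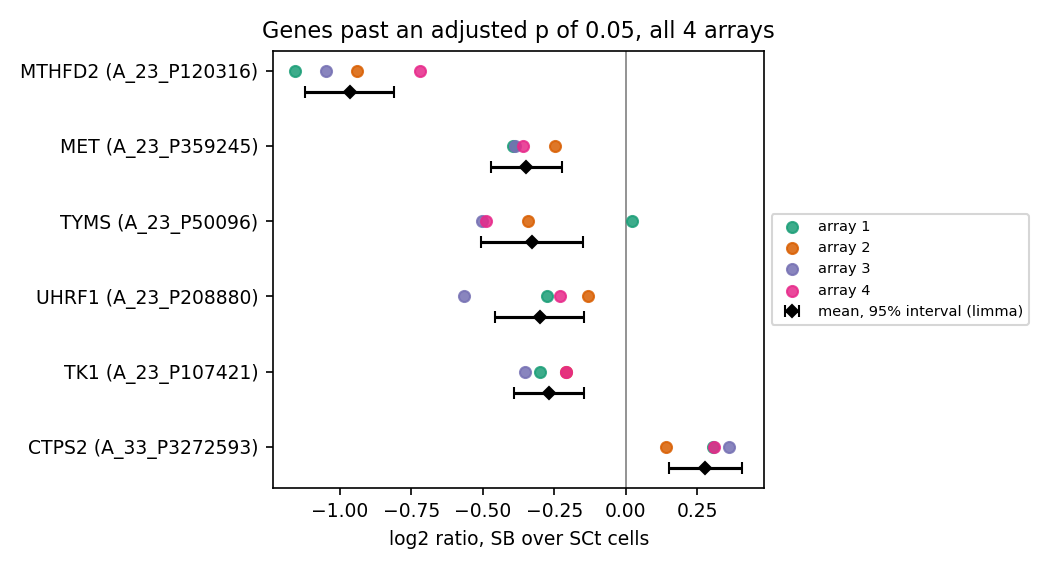
Log2 ratio of SB over SCt cells (x axis) at the brightest probe of 6 genes past an adjusted p of 0.05 (limma), with a coloured point for each of 4 arrays and a black diamond with a bar for the mean and its 95% interval. MTHFD2, MET, UHRF1 and TK1 are below 0 on all 4 arrays, TYMS on 3 of 4, and CTPS2 is above 0 on all 4.

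None of the 6 genes of the TFCP2 family was past the threshold by limma. UBP1, the closest paralog of TFCP2, had −0.06 ± 0.18 (limma, adjusted p = 0.699), TFCP2L1 0.11 ± 0.05 (limma, adjusted p = 0.295) and GRHL1 0.01 ± 0.12 (limma, adjusted p = 0.944; SD, n = 4 arrays each). UBP1 turned to 0.06 and GRHL1 to −0.14 under median centring. GRHL2 had −0.17 ± 0.15 at its brightest probe (limma, adjusted p = 0.192) and 0.09 ± 0.20 at the other. GRHL3 had 0.18 ± 0.53 (SD, n = 4 arrays; limma, adjusted p = 0.557), with array 1 at 0.96 and the others between −0.20 and 0.05, and turned to −0.08 without array 1. TFCP2L1 was above 0 on 4 of 4 arrays.

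Other genes that have been reported with drug resistance driven by AEG-1 were ABCB1, ABCC11, ALDH3A1, CYP2B6 and MET, and 1 of these 5 was called (3.51% of all genes were), MET, the same call as among the reported TFCP2 targets. AKR1C2 was not matched to a probe by accession and was not analysed here. The efflux pumps ABCB1 (−0.02 ± 0.06; limma, adjusted p = 0.879) and ABCC11 (0.04 ± 0.16; limma, adjusted p = 0.788; SD, n = 4 arrays each) were not past the threshold. Under median centring ABCB1 turned to 0.19 and ABCC11 to −0.22, both then past it. ALDH3A1, an aldehyde dehydrogenase, had 0.04 ± 0.07 (SD, n = 4 arrays; limma, adjusted p = 0.772). CYP2B6, a drug-metabolizing cytochrome, had values on 2 arrays at its brightest probe, 0.15 and 0.34 (limma, adjusted p = 0.166), as the other spots were marked as outliers, and −0.05 ± 0.13 over 4 arrays at its other probe. With outlier spots kept it was 0.25 and past the threshold (limma, adjusted p = 0.0406).

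The pattern of TYMS over the 4 arrays was set against 23136 genes with a value on every array. The 4 named genes among the nearest 5 were LMNB1 (0.03, −0.37, −0.57 and −0.40), GDAP1 (−0.06, −0.31, −0.50 and −0.40), SPART (0.08, −0.32, −0.41 and −0.40) and ATP1B1 (−0.0078, −0.23, −0.42 and −0.49), and the other was an unnamed RefSeq transcript. Their Euclidean distances from TYMS were 0.116 to 0.146 on the log2 scale. With only 4 points each, this likeness is a description. LMNB1 encodes a lamin of the nuclear envelope and ATP1B1 a subunit of the sodium pump. By limma, GDAP1 (adjusted p = 0.0329) and the unnamed transcript (−0.07, −0.26, −0.50 and −0.48, adjusted p = 0.0318) were past the threshold, and LMNB1 (adjusted p = 0.0557), SPART (adjusted p = 0.0969) and ATP1B1 (adjusted p = 0.0643) were not.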

How the data were processed

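Gene expression in SB and SCt cells was measured on 4 dual-channel arrays. Per the file headers, the authors deposited median red and green intensities with local background for each spot (Agilent Feature Extraction 10.5.1.1), not normalized, beside 0 or 1 flags. The same deposited files hold the software's log10 ratio of red over green. The authors also deposited a series table of log2 ratios, in which 92.5% to 95.4% of probes per array lay within 0.001 of the software's ratio averaged over spots.

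R 4.3.3 and limma 3.58.1 were used. All spots entered the normexp correction (offset 50). Control spots (1377) and outlier spots (814 to 1168 per array) were then removed, loess was applied array by array, and spots of a probe were averaged. No spot was saturated. Probes needed the same channel to be well above background on 4 of 4 arrays and values on at least 2. Means were tested against 0 with lmFit and eBayes. Intensities per channel come from loess and Aquantile normalization. The number of arrays limits the precision. Names came from the RefSeq table by unversioned accession (24826 of 34127 probes matched). On simulated arrays with 200 of 28507 probes changed, 200 were recovered with their sign, and 17 of the rest were called.

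The genes, lists and tests were chosen with earlier results of these data known. Named were the set with every probe, listed genes past the threshold, the TFCP2 family, reported TFCP2 targets, other genes reported with AEG-1 and drug resistance, MTDH, and the 5 genes nearest to the member of lowest p. Further genes named, such as SHMT2, ENOSF1 and those under other observations, were chosen after their values were seen. Alternatives concerned the background, the normalization, the authors' ratios, the dim filter, outlier spots, the moderation, the methods' t-test, the probes of a gene and each array left out.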

Additional observations from a re-analysis of the deposited data

How the results depend on the processing

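No paired analysis was possible because none was left to add: each ratio pairs SB with SCt cells on 1 array, and every test used that pairing. A slide block could not be fitted, since all arrays lay on 1 slide. The cause of the shifts below was not tested.

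Probes called numbered 1055 (376 higher, 679 lower in SB cells). Median centring gave 8939 (5599 higher, 3340 lower). Of probes, 698 were called in the series table, 579 by trend and robust eBayes, 0 by the methods' t-test (3936 at an unadjusted p under 0.05), and with an array left out 204 (without array 3) to 1977 (without array 4). The count of the set, 1, was 0 by normexp without an offset, the software's ratios, the series table, outlier spots kept, trend and robust eBayes, the methods' t-test and the mean over probes, 2 under median centring, and 0 to 1 with an array left out (0 without array 2 or 3). Pyrimidine and folate genes called, 4, were 1 (MTHFD2) by normexp without an offset, trend and robust eBayes, the series table and the software's ratios, 0 by the methods' t-test, 19 under median centring, and 1 (without array 2 or 3) to 7 (without array 4). Without array 1 they were again 4, with TDG and SLC22A7 in place of TK1 and CTPS2. G1/S genes called, 3, were 0 by normexp without an offset, the software's ratios, the series table, trend and robust eBayes and the methods' t-test, 6 under median centring, 1 with the mean over probes, and 0 to 4 with an array left out (1 without array 1, 0 without array 2 or 3).

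TYMS (−0.33) was not called by normexp without an offset (−0.33), median centring (−0.15), the software's ratios (−0.30), the series table (−0.30), outlier spots kept (−0.33), trend and robust eBayes (−0.33), the methods' t-test (−0.33) or in the mean over probes (−0.33, adjusted over genes), and lay between −0.44 and −0.27 with an array left out. TYMP (0.52) and UCK2 (0.20) were called under median centring. Signs turned, in genes not called, for TYMP (−0.0195 by the software's ratios and in the series table), TFCP2 (−0.0179) and DPYD (0.0416) with the mean over probes, DPYD (−0.0843 to 0.0150) and UMPS (−0.0301 to 0.0836) with an array left out.

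Among other genes, median centring turned TK1 (0.0095), UBP1 (0.0566), GRHL1 (−0.14), SPP1 (−0.0108), ABCC11 (−0.22), ABCB1 (0.19) and SCO2 (0.0842). No background correction turned GRHL1 (−0.0406) and SPP1 (−0.0042), normexp without an offset SPP1 (−0.0065), and the software's ratios and the series table GRHL1 (−0.13 in each) and ABCC11 (−0.0594 in each). With an array left out, signs turned within UBP1 (−0.12 to 0.0220), GRHL1 (−0.0463 to 0.0420), GRHL3 (−0.0811 to 0.31), SPP1 (−0.10 to 0.12), CYP2B6 (−0.0478 to 0.25, where its other probe stands in), ABCC11 (−0.0114 to 0.12), ABCB1 (−0.0421 to 0.0031) and SCO2 (−0.0489 to 0.0136). SCO2 overlaps TYMP in the RefSeq table. MTDH, MTHFD2 and MET kept their sign in the 10 alternatives that altered their ratios. As all 4 arrays were below 0 for each, leaving out an array could not turn them. In each tally of alternatives the software's ratios and the series table were counted apart, although their values were nearly the same.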

Other observations

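Genes of the pyrimidine list that were not called at their brightest probe included CMPK1, the kinase that turns UMP, CMP and their fluorinated forms into diphosphates. At its brightest probe the log2 ratios were −0.12, −0.31, −0.32 and −0.10 (mean −0.21 ± 0.12, SD over 4 arrays; limma, adjusted p = 0.0805). At its other probe, spotted 10 times, they were −0.35, −0.40, −0.72 and −0.26 (mean −0.43 ± 0.20, SD, n = 4 arrays; limma, adjusted p = 0.00847), past the threshold and below 0 on 4 of 4 arrays. With the mean over probes, CMPK1 was among the called genes of the list. TDG, a glycosylase that removes uracil and thymine from mismatches with guanine, had 0.06, −0.21, −0.40 and −0.37 at its brightest probe (limma, adjusted p = 0.121), and −0.0041 on average at the other. SLC22A7, an organic anion transporter, had the highest mean of the 68 genes tested, from −0.11, 0.11, 0.75 and 0.51 at its brightest probe (mean 0.31 ± 0.39, SD over 4 arrays; limma, adjusted p = 0.156), whereas the second probe averaged −0.09. Without array 1, TDG was called lower and SLC22A7 higher, and TK1 and CTPS2 were not called. ABCC4, a pump for nucleotide analogs, had 0.15, 0.21, 0.08 and 0.66 (mean 0.28 ± 0.26, SD, n = 4 arrays; limma, adjusted p = 0.103), above 0 on 4 of 4 arrays.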
